A study of Mus musculus with 20 samples.

Results

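The subject is the dependence of the day-night difference on genotype in the mouse left ventricle, that is, how far the change from lights on to lights off in CardioGRKO hearts departed from the same change in GRflox hearts. All 20 of the 20 libraries in the series were used, 5 in each of 4 groups set by the genotype and time in their labels. Both genotypes were male C57BL/6 mice of about 9 to 13 weeks with floxed Nr3c1, the gene of the glucocorticoid receptor (GRfl/fl). CardioGRKO mice also have alphaMHCCre/+, a Cre recombinase expressed from the cardiomyocyte promoter of alpha myosin heavy chain, and GRflox mice are littermates without Cre. Loss of the receptor and presence of Cre therefore cannot be told apart in these groups. Hearts were collected at ZT0, the start of the light phase, or at ZT12, the start of the dark phase, and RNA came from the whole free wall with all its cell types. Only 2 times of day were sampled, so a smaller difference between them cannot be told apart from a shifted rhythm.

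In the circadian clock, BMAL1 (gene Arntl) pairs with CLOCK or NPAS2 and activates the Per, Cry, Nr1d and Dbp genes, whose products repress or tune the loop. The glucocorticoid receptor is a transcription factor switched on by corticosterone, which in nocturnal rodents rises in blood toward lights off. A gene of the heart can thus follow the local clock, hormones and other signals from outside, or both.

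The libraries held 5854462 to 37648421 counted reads (median 23223656), and 14007 genes passed the filter on low counts and were tested. The shallowest, replicate 1 of CardioGRKO at ZT0, lay at 34.5 on the first principal component (24.4% of the variance) above the others of its group, and its file bears a number that the remaining 19 do not share, with no source for what it means. Replicates are numbered in the labels without naming animals, so p-values measure the spread between libraries, which may be technical. Levels are in CPM (counts scaled to the library total with TMM factors), which are not corrected for gene length, so levels were compared between libraries and never between genes. Differences are log2 fold changes ± standard error from 1 edgeR quasi-likelihood fit of all 20 libraries, 5 per group. The interaction is the ZT12 minus ZT0 difference in CardioGRKO minus that in GRflox, and a gene is said to be called where its Benjamini-Hochberg adjusted p over all genes was under 0.05. All 11 cardiomyocyte markers were measured, and their summed level separated the genotypes, at 113136 to 118476 CPM in GRflox against 102276 to 109694 CPM in CardioGRKO at ZT0 and 118288 to 122950.3 against 101252 to 114724 CPM at ZT12. All 11 had a negative interaction (median -0.06), or 9 of 11 with a median of -0.02 with scaling by library totals alone. Among all 14007 genes tested 7099 were negative (median -0.003), or 5351 (median 0.037) with library totals alone. The part of these markers in the results was not tested. Of 80 measured genes in 11 lists of cell type markers, edgeR called 0 for the interaction (0.186% of all genes tested). At an unadjusted p under 0.05 there were 7 (5.99% of all genes tested), and DESeq2 and limma voom called 0. With so small a share called over all genes, 0 calls in 80 do not show the markers to be free of an interaction.

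Nr3c1, the targeted gene (Entrez gene 14815, chromosome 18, 39410545 to 39519421, build mm10 for all positions), had a level in CPM of 115 ± 6.11 (SD, n = 5) in GRflox against 55.2 ± 3.51 in CardioGRKO at ZT0. At ZT12 the levels were 107 ± 7.98 and 51.0 ± 3.50 CPM. Every CardioGRKO library lay below every GRflox library at both times. The interaction was -0.02 ± 0.08 (edgeR, adjusted p = 0.993), so a change of the genotype gap with time was not detected. The counts cover the whole gene and all cell types, and the floxed region itself was not looked at.

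The central comparison asks which genes changed between lights on and lights off by a different amount in the 2 genotypes. Of 14007 genes, 26 were called (0.186% of those tested), 9 with a positive interaction (0.0643%) and 17 with a negative one (0.121%). At an unadjusted p under 0.05 the count was 839 (5.99%). The 17 negative genes rose at ZT12 in GRflox, and 7 of them also rose in CardioGRKO. Of the 9 positive genes, 8 fell at ZT12 in GRflox and 5 of these fell in CardioGRKO, while the ninth, Zfp646, rose in CardioGRKO. With scaling by library totals alone, 19 genes were called with a positive and 15 with a negative interaction.

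The time differences that enter the interaction were called for 2423 genes in GRflox (17.3%) and 1284 in CardioGRKO (9.17%). In GRflox 1139 rose (8.13%) and 1284 fell (9.17%), against 910 and 1616 with scaling by library totals alone. In CardioGRKO 619 rose (4.42%) and 665 fell (4.75%), against 706 and 598 with library totals alone. The median standard error was 0.09 in both genotypes and 0.12 for the interaction. The genotypes shared 957 of these calls, which is 39.5% of the GRflox calls and 74.5% of the CardioGRKO calls, and all 957 had the same direction. Of the 1466 genes called in GRflox alone, 13 (0.887%) were called for the interaction and 1366 had the same direction in CardioGRKO. Of the 327 genes called in CardioGRKO alone, 1 was called for the interaction, so a call in 1 genotype and not in the other rarely came with a detected difference between them.

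**Figure D1:**
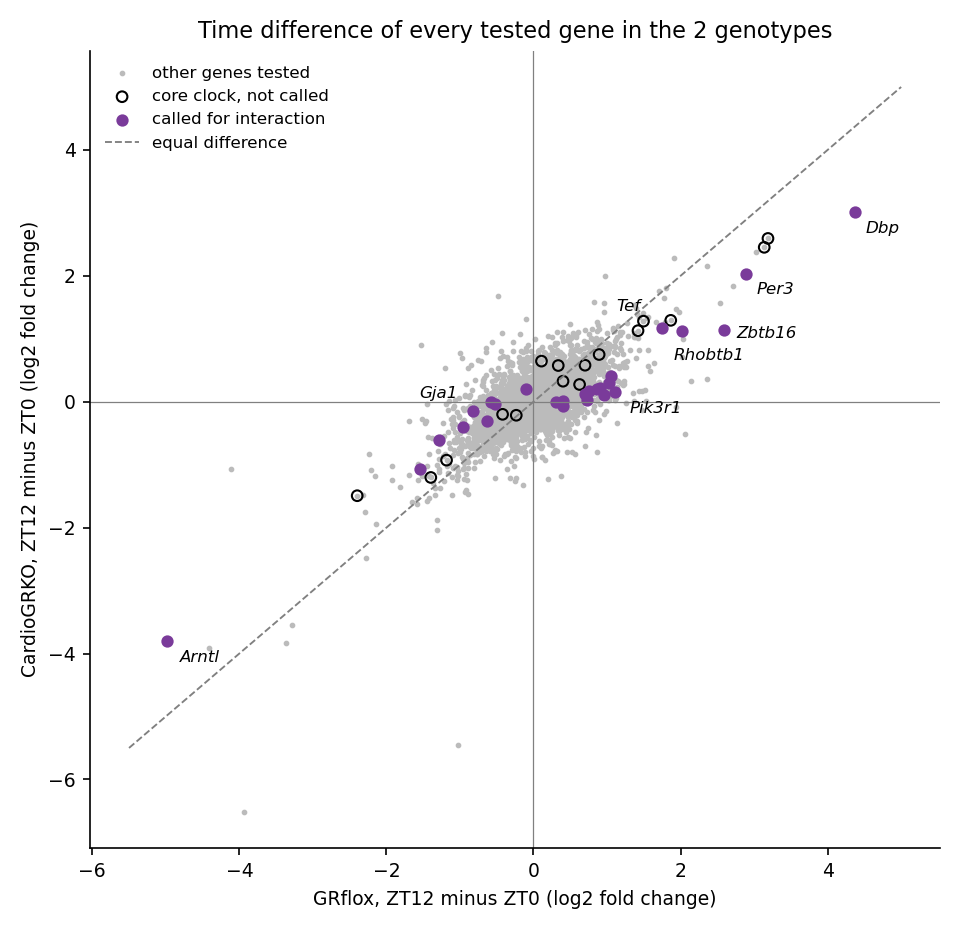
Each point is 1 of 14007 genes, with its ZT12 minus ZT0 log2 fold change in GRflox on the x axis and in CardioGRKO on the y axis. The 26 called genes (filled) lie mostly between the dashed line of equal differences and the horizontal axis, and open circles are the core clock genes that were not called.

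Among the 26, the time difference was smaller in CardioGRKO in 23, larger in 0 and of opposite sign in 3, Lrrc58 and Zfp646 among them. These signs are of fitted values, and 0 genes were called for time in both genotypes with opposite directions. In all genes tested the shares were 43.4% smaller, 29.3% larger and 27.3% opposite. DESeq2 called 69 genes and limma voom 21, and in neither set was a difference larger in CardioGRKO. At an unadjusted p, 50 of the 839 genes had a larger difference in CardioGRKO, 391 (46.6%) a smaller one and 398 (47.4%) one of opposite sign. The median change in CardioGRKO was 23.9% of that in GRflox over the 26 genes. In GRflox the ZT0 and ZT12 libraries did not overlap for 25 of the 26 (12.5% of genes tested), and in CardioGRKO for 15 (7.11%). These counts describe genes chosen by a contrast of the same 4 groups, and give no support of their own to it.

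The time at which the genotypes stood apart varied among the 26 genes. At ZT12 22 differed between genotypes (21.1% of genes tested), 16 lower (10.7%) and 6 higher (10.4%) in CardioGRKO, and at ZT0 13 differed (14.7%), 7 lower (7.35%) and 6 higher (7.36%). With library totals alone the split of all genotype calls moved to 3088 higher and 853 lower at ZT12 (from 1453 and 1499) and to 1587 and 617 at ZT0 (from 1031 and 1029). The difference was called at ZT12 alone for 13 genes, at ZT0 alone for 4 (Per3, Akap1, Arntl and Zfp646) and at both times for 9. In 21 genes it was larger at ZT12. Dbp and Glul were higher in CardioGRKO at ZT0 and lower at ZT12, called at both times. The libraries of the genotypes overlapped for Dbp at ZT12 (edgeR, adjusted p = 0.0268) and for Glul at ZT0 (adjusted p = 0.0289).

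**Figure D2:**
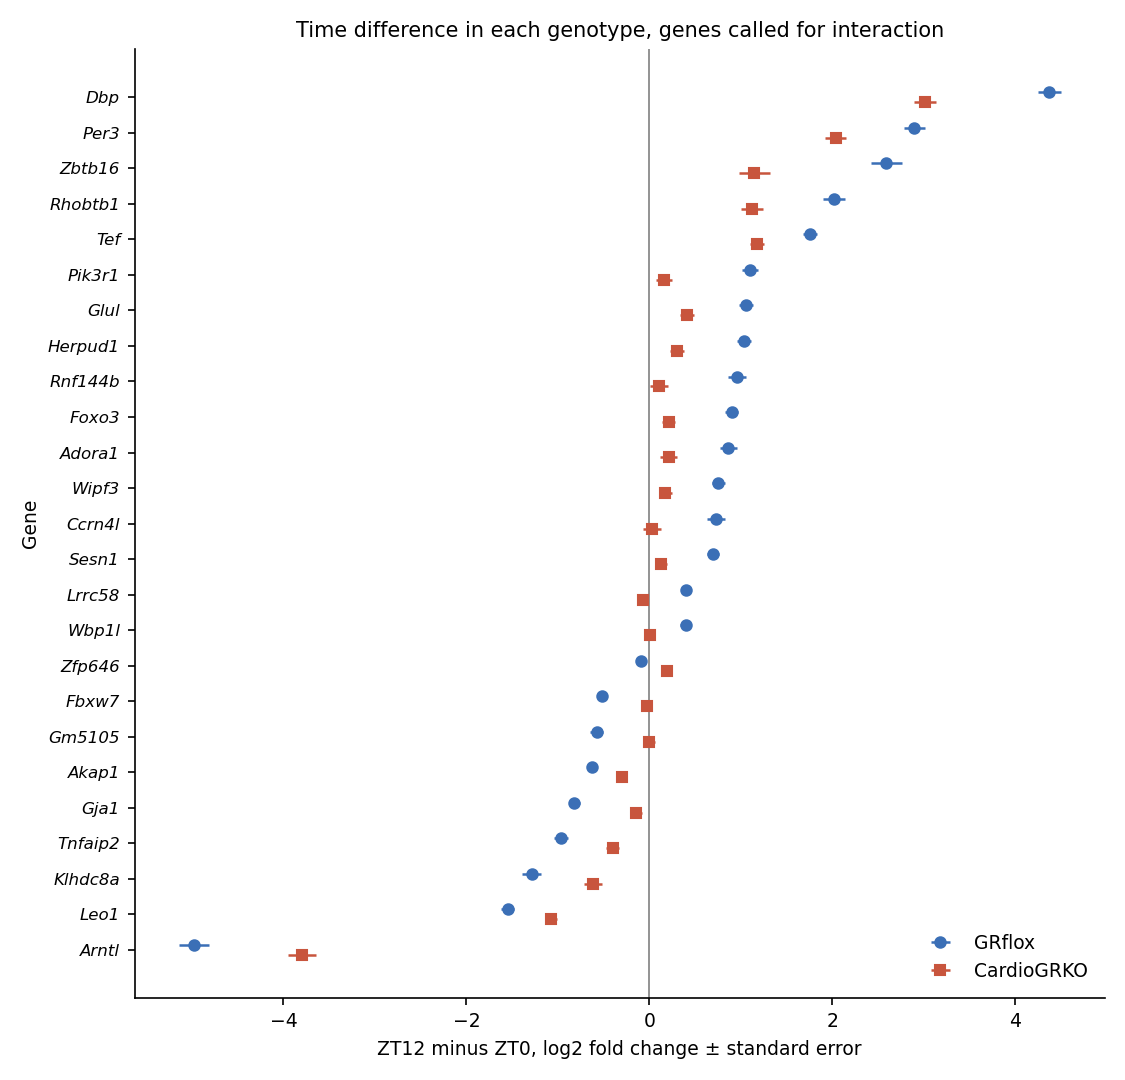
ZT12 minus ZT0 log2 fold change ± standard error of 25 of the 26 called genes in GRflox and CardioGRKO, with 5 libraries per group. In 23 genes the CardioGRKO value lies nearer 0 on the same side, as for Pik3r1 at 0.16 ± 0.09 against 1.10 ± 0.09.

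The calls differed in how far they rested on single libraries. With each library left out in turn, 16 of the 26 genes kept their call in all 20 fits, and these are Dbp, Pik3r1, Lrrc58, Gja1, Foxo3, Herpud1, Sesn1, Zbtb16, Rnf144b, Glul, Fbxw7, Wipf3, Gm5105, Tnfaip2, Tef and Per3. Among the other 10, Ccrn4l kept it in 18 fits, Rhobtb1 in 16, Akap1 in 14, Adora1 in 13, Arntl in 8, Klhdc8a in 6, Wbp1l and Zfp646 in 4 each and Leo1 in 2. Their highest adjusted p in these fits ran from 0.0519 for Ccrn4l to 0.127 for Arntl. The sign of the interaction did not turn for any of the 26 in 28 alternative fits.

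**Figure D3:**
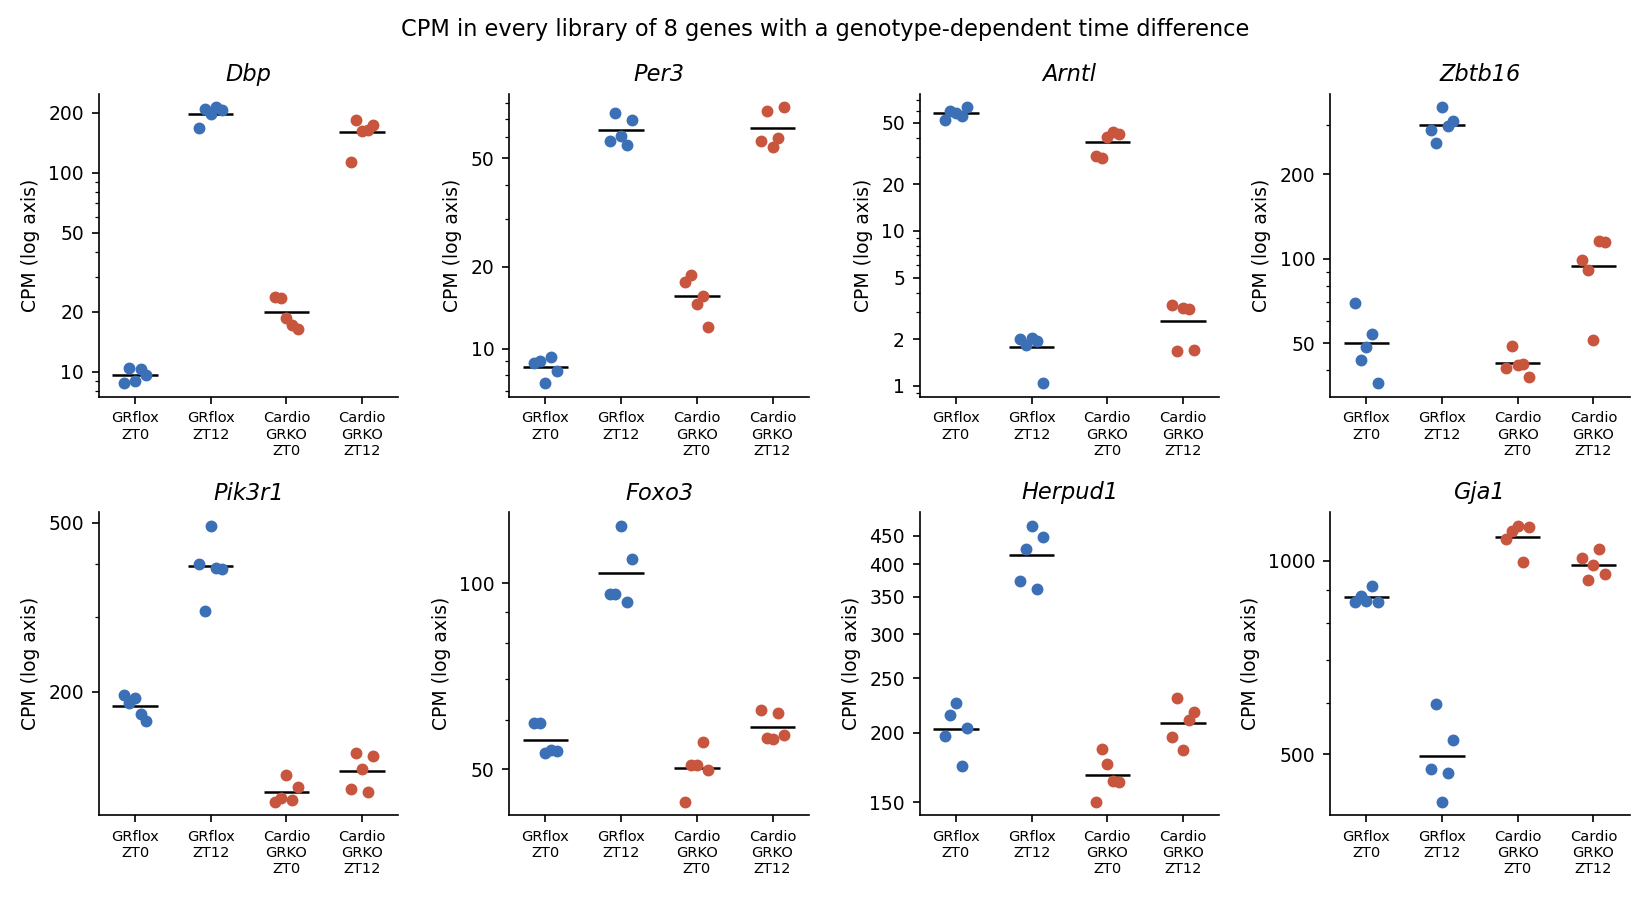
CPM on a log axis in each of the 20 libraries for 8 called genes, with the mean of each group as a bar. Dbp and Per3 differ most between genotypes at ZT0, whereas Zbtb16, Pik3r1, Foxo3, Herpud1 and Gja1 differ most at ZT12.

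Core clock genes held 4 of the called genes. All 20 genes of the list were measured, and Dbp, Per3 and Tef had a negative and Arntl a positive interaction (0.186% called among all genes tested). In all 4 the time difference kept its direction and was smaller in CardioGRKO. Of the 19 core clock genes with a time difference averaged over the genotypes, 18 had the smaller difference in CardioGRKO, Nr1d1 being the exception. Over all genes 25.7% had such an averaged difference, and it was smaller in CardioGRKO in 66.5% of them. DESeq2 called 6 genes of the list and limma voom 3.

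On the activating side of the clock, Arntl (Entrez gene 11865, chromosome 7, 113178471 to 113314126) stood at 52.4, 59.5, 57.5, 55.5 and 63.0 CPM in the GRflox libraries at ZT0 and at 2.01, 1.84, 2.03, 1.95 and 1.04 CPM at ZT12. In CardioGRKO it stood at 30.3, 29.5, 40.7, 43.5 and 42.6 CPM at ZT0 and 3.32, 1.68, 3.18, 3.14 and 1.70 CPM at ZT12. The genotypes were separate at ZT0, where CardioGRKO was lower, and overlapped at ZT12. The fall was 31.6-fold in GRflox and 13.9-fold in CardioGRKO, with an interaction of 1.18 ± 0.24 (edgeR, adjusted p = 0.0397). The levels at ZT12 were low, and the call was lost with limma voom, with all libraries thinned to the shallowest total (adjusted p = 0.548) and in 12 of 20 fits with a library left out. Its partners were not called by edgeR, where Clock had an interaction of 0.25 ± 0.08 (adjusted p = 0.429) and Npas2 of 0.90 ± 0.25 (adjusted p = 0.250). DESeq2 called Npas2 (adjusted p = 0.0476) and not Clock. Both fell at ZT12 in both genotypes, by 2.27-fold and 1.90-fold for Clock and by 5.27-fold and 2.81-fold for Npas2 (GRflox first).

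Among the repressors, Per3 (Entrez gene 18628, chromosome 4, 150997018 to 151044707), a period gene, stood at 8.87, 9.03, 7.47, 9.28 and 8.24 CPM in GRflox at ZT0 and at 57.8, 73.1, 60.4, 55.9 and 69.4 CPM at ZT12. The CardioGRKO libraries held 17.5, 18.6, 14.6, 15.6 and 12.0 CPM at ZT0 and 57.9, 74.8, 54.8, 59.3 and 77.0 CPM at ZT12. The ZT0 values of the genotypes did not overlap, with CardioGRKO 1.85-fold higher, while at ZT12 they covered nearly the same range. Per3 rose 7.44-fold in GRflox and 4.10-fold in CardioGRKO, with an interaction of -0.86 ± 0.16 (edgeR, adjusted p = 0.0137), and the adjusted p was 0.145 in libraries thinned to the shallowest total. The other repressors were not called, with Per2 at -0.59 ± 0.33, Per1 at -0.22 ± 0.38, Cry2 at -0.14 ± 0.10, Cry1 at 0.02 ± 0.13 and Ciart at -0.69 ± 0.28. Ciart, which represses BMAL1 and CLOCK, was the one of these 5 with an unadjusted p under 0.05 (adjusted p = 0.690). Its level in CardioGRKO was lower at both times, 6.98 ± 1.08 against 20.8 ± 4.12 CPM at ZT12.

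Nuclear receptors of the second loop act on Arntl, REV-ERBs (Nr1d1 and Nr1d2) as repressors and Rora and Rorb as activators. Of the clock genes that edgeR did not call, Nr1d2 had the smallest p, with an interaction of -0.57 ± 0.13 (edgeR, adjusted p = 0.0657), and rose 3.65-fold in GRflox and 2.45-fold in CardioGRKO. It was called in 4 of the 8 other settings, among them DESeq2 (adjusted p = 0.00516) and the fit with the replicate block (0.00184), and in 4 of 20 fits with a library left out. Like Dbp and Per3 it was higher in CardioGRKO at ZT0, 67.1 ± 6.15 against 48.6 ± 7.66 CPM, with no overlap of libraries. Nr1d1 had a larger rise in CardioGRKO, 0.57 ± 0.12 against 0.34 ± 0.12, with an interaction that did not pass the test (0.24 ± 0.17, adjusted p = 0.930). The interactions of Rora and Rorb (-0.08 ± 0.10 and 0.54 ± 0.43) and of the repressors Bhlhe40 and Bhlhe41 (-0.35 ± 0.17 and -0.12 ± 0.13) did not pass it either.

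The PAR bZIP factors are clock outputs that bind D-box motifs. Dbp (Entrez gene 13170, chromosome 7, 45705100 to 45710203) stood at 8.77, 10.4, 8.97, 10.3 and 9.64 CPM in the GRflox libraries at ZT0 and at 168, 208, 196, 213 and 206 CPM at ZT12. In CardioGRKO the values were 23.7, 23.4, 18.7, 17.2 and 16.3 CPM at ZT0 and 113, 184, 162, 164 and 174 CPM at ZT12. At ZT0 every CardioGRKO library was thus above every GRflox library, 2.06-fold on average, and the ZT12 ranges overlapped with CardioGRKO 1.25-fold lower. Dbp rose 20.7-fold in GRflox and 8.07-fold in CardioGRKO, and its interaction of -1.36 ± 0.16 had the smallest p of all genes (edgeR, adjusted p = 0.000332).

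Tef (Entrez gene 21685, chromosome 15, 81802673 to 81826863), the related thyrotroph embryonic factor, stood at 89.7, 80.3, 79.1, 87.8 and 81.0 CPM in GRflox at ZT0 and at 259.6, 299.6, 289, 264 and 294 CPM at ZT12. The CardioGRKO values were 99.1, 115, 96.4, 95.7 and 77.3 CPM at ZT0 and 208, 241, 199, 213 and 234 CPM at ZT12. Here the genotypes overlapped at ZT0 and were separate at ZT12, where CardioGRKO was lower. The rise was 3.37-fold in GRflox and 2.26-fold in CardioGRKO, with an interaction of -0.58 ± 0.10 (edgeR, adjusted p = 0.0129). The third member, Hlf, had -0.29 ± 0.17 and the opposing repressor Nfil3 had 0.19 ± 0.20, neither called (adjusted p = 0.879 and 0.952).

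**Figure D4:**
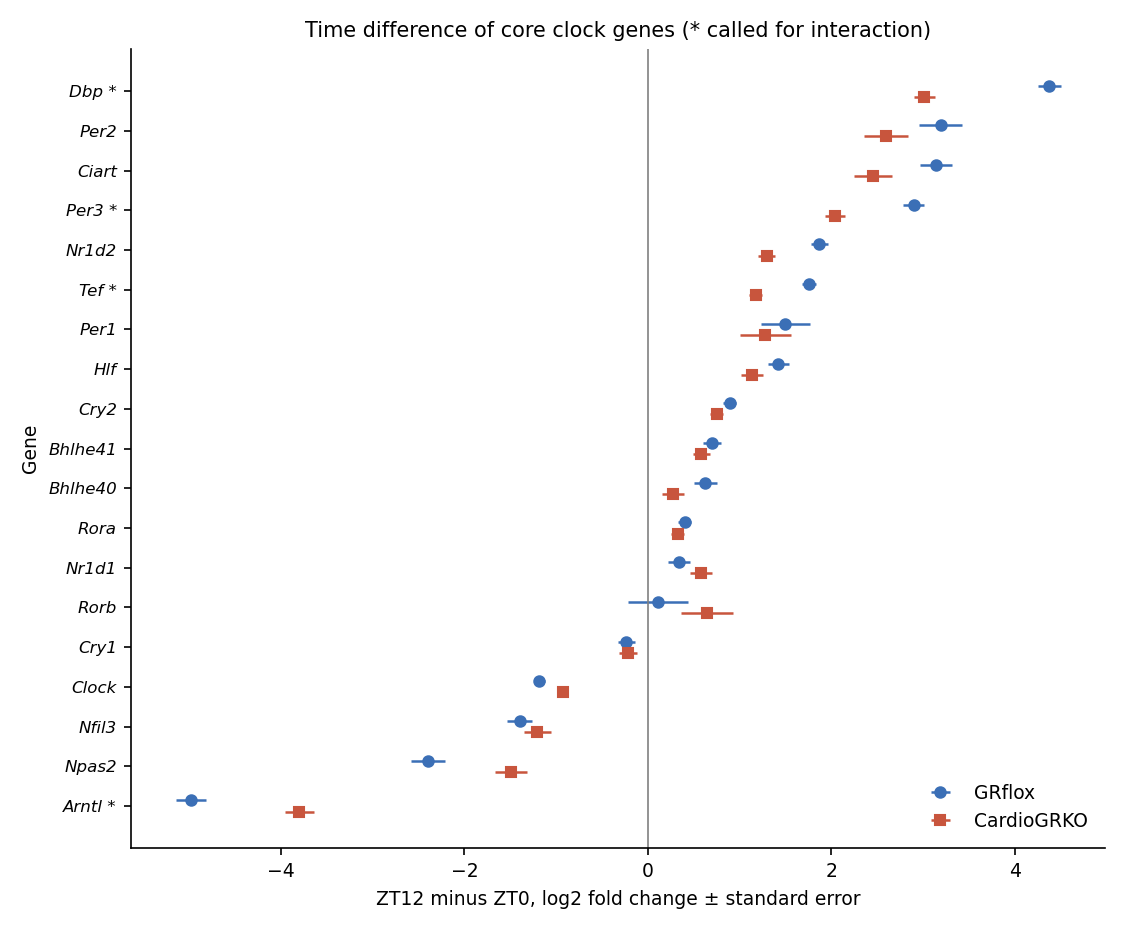
ZT12 minus ZT0 log2 fold change ± standard error of 19 of the 20 core clock genes in GRflox (circles) and CardioGRKO (squares), 5 libraries per group, with called genes starred. The CardioGRKO value lies nearer 0 for all but Nr1d1 and Rorb, with the widest gap at Dbp.

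Promoters of called genes were searched for the motifs of the clock and the receptor in the 250 bases before each RefSeq start. The E-box CACGTG, which BMAL1 with CLOCK binds, the D-box TTATGTAA, which PAR bZIP factors bind, and the glucocorticoid response element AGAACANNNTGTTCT with its single arm AGAACA were searched on both strands. Windows were found for 23 of the 26 called genes and for 11083 genes tested. The E-box stood in 3 of the 23 (Lrrc58, Rhobtb1 and Tef), against 9.72% of the genes tested, and the D-box in 1 (Per3), against 0.605%. The full response element was in 0 of the 23 and 0.00902% of the genes tested, and the single arm in 1 (Tef) and 13.0%. Over all 32851 windows the shares were 6.02% for the E-box and 0.819% for the D-box. The windows that hold an E-box or a D-box are shown here because they are the called genes with a clock motif at the start, in build GRCm38.p6, 5′ to 3′ on the strand of the gene, with the motif in capitals. A match in these letters is a description and not a bound site.
Lrrc58, E-box, chr16:37868150-37868399, plus strand: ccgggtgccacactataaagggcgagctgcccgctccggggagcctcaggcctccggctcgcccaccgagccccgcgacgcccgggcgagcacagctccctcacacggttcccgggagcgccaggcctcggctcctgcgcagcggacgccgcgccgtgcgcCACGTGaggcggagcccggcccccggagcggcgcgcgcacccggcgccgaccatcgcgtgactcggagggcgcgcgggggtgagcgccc
Tef, E-box, chr15:81802423-81802672, plus strand: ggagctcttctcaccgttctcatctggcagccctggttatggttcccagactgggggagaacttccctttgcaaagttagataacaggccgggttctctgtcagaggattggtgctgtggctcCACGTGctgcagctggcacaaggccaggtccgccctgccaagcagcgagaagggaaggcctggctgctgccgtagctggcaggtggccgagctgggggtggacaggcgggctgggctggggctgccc
Tef, E-box, chr15:81811164-81811413, plus strand: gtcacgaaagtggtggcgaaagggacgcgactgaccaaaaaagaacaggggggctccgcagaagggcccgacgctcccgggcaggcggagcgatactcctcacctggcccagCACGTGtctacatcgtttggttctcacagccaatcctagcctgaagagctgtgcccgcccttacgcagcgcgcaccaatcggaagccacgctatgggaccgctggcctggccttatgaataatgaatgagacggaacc
Per3, D-box, chr4:151044666-151044915, minus strand: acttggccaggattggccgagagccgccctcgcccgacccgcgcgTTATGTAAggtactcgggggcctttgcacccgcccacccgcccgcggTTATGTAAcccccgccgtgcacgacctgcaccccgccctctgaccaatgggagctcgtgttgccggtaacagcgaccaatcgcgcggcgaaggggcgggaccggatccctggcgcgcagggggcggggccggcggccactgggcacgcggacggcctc
Rhobtb1, E-box, chr10:69212407-69212656, plus strand: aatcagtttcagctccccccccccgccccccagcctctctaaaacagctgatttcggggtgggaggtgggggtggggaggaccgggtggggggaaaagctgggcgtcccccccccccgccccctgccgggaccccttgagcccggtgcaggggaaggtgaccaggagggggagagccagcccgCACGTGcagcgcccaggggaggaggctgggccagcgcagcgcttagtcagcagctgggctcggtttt

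Per3 carried the D-box at 2 places, at positions -205 and -158 from the start site. Tef has a pair of annotated starts with a window each, and both hold an E-box.

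Glucocorticoid-induced genes form the list with as many calls as the clock. All 34 genes of the list were measured, and Foxo3, Zbtb16, Sesn1 and Glul were called with a negative interaction and 0 with a positive one (0.186% called either way in all genes). The median interaction of the list was -0.21, against -0.003 over all genes tested. In GRflox 21 of the 34 rose at ZT12 and 3 fell (17.3% called either way in all genes), and in CardioGRKO 11 rose and 2 fell (9.17%). Of 25 with a time difference averaged over genotypes, 22 had the smaller difference in CardioGRKO (25.7% of all genes had such an averaged difference, 66.5% of them smaller).

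Zbtb16 (Entrez gene 235320, chromosome 9, 48651797 to 48836225), a zinc finger transcription factor gene induced by glucocorticoids in many tissues, stood at 69.5, 43.4, 48.5, 53.8 and 36.0 CPM in GRflox at ZT0 and at 287, 259, 347, 298 and 310.4 CPM at ZT12. In CardioGRKO it stood at 40.8, 49.0, 41.9, 42.2 and 37.7 CPM at ZT0 and 98.9, 91.3, 51.2, 116 and 115 CPM at ZT12. The genotypes overlapped at ZT0 and were far apart at ZT12, where the highest CardioGRKO library lay below the lowest of GRflox. Its rise was 6.02-fold in GRflox and 2.21-fold in CardioGRKO, and the interaction of -1.44 ± 0.24 was the most negative of the called genes (edgeR, adjusted p = 0.00533).

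Foxo3 (Entrez gene 56484, chromosome 10, 42181845 to 42276695) encodes a forkhead factor that drives atrophy and autophagy genes and is held back by insulin signalling. It stood at 59.3, 59.4, 53.2, 53.8 and 53.5 CPM in GRflox at ZT0 and at 96.3, 96.1, 124, 93.4 and 109.7 CPM at ZT12. CardioGRKO libraries held 44.3, 50.7, 50.7, 55.4 and 49.8 CPM at ZT0 and 62.3, 56.2, 55.9, 61.7 and 56.8 CPM at ZT12. All 5 GRflox libraries at ZT12 were above all others, and the rise was 1.87-fold in GRflox. In CardioGRKO it was 1.16-fold (0.21 ± 0.07 on the log2 scale), not called (edgeR, adjusted p = 0.0627), though the ZT0 and ZT12 libraries did not overlap. The interaction was -0.69 ± 0.10 (edgeR, adjusted p = 0.00126).

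Sesn1 (Entrez gene 140742, chromosome 10, 41810574 to 41908436), which encodes a sestrin that restrains mTORC1, lies on the same chromosome, 0.273 Mb from Foxo3. It stood at 91.0, 103, 96.5, 97.7 and 122 CPM in GRflox at ZT0 and at 168, 169, 176, 141 and 176 CPM at ZT12, against 101, 101, 98.1, 99.1 and 100.4 CPM and 106, 111, 102, 111 and 117 CPM in CardioGRKO. The genotypes overlapped at ZT0, with a difference of -0.03 ± 0.07 (adjusted p = 0.815), and at ZT12 every GRflox library was above every CardioGRKO library. The interaction was -0.57 ± 0.09 (edgeR, adjusted p = 0.00531).

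Glul (Entrez gene 14645, chromosome 1, 153899929 to 153909723), glutamine synthetase, stood at 536, 462, 552, 532 and 629 CPM in GRflox at ZT0 and at 1071, 1092, 1263, 1089 and 1099 CPM at ZT12. In CardioGRKO the values were 734, 718, 559, 620.3 and 596 CPM at ZT0 and 927, 793, 799, 893 and 869 CPM at ZT12. It rose in both genotypes, 2.07-fold in GRflox and 1.33-fold in CardioGRKO. CardioGRKO started higher, with overlapping libraries at ZT0, and ended lower, with separate ones at ZT12. The interaction was -0.64 ± 0.11 (edgeR, adjusted p = 0.00608).

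A further 6 genes of the list had an unadjusted p under 0.05 (5.99% of all genes), all with a negative interaction, and DESeq2 called 6 genes of the list against 4 by edgeR and 4 by limma voom. Klf15, a metabolic transcription factor that the receptor induces, had -0.77 ± 0.17 (edgeR, adjusted p = 0.0657) and rose by 0.99 ± 0.12 in GRflox, against 0.22 ± 0.12 in CardioGRKO, which was not called. DESeq2 called the interactions of Klf15 (adjusted p = 0.00402) and Plin4 (0.0116), and that of Klf15 was called in 3 of the 8 other settings. Arrdc2, an arrestin-like gene, had -1.31 ± 0.37, not called (adjusted p = 0.262). The interactions of Plin4, Mt1, Cebpb and Ptgds were -0.45 ± 0.11, -0.54 ± 0.21, -0.99 ± 0.35 and -0.83 ± 0.35 (edgeR, adjusted p = 0.103, 0.623, 0.540 and 0.713).

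Insulin, PI3K and FOXO genes were called in 3 of 27 cases, Pik3r1 and again Foxo3 and Sesn1, all negative (0.121% in all genes), with a list median of -0.05. Pik3r1 (Entrez gene 18708, chromosome 13, 101680761 to 101768217) encodes the regulatory subunit of class I PI3 kinase. It stood at 196, 188, 193, 177 and 170.2 CPM in GRflox at ZT0 and at 399.8, 309, 492, 391 and 389 CPM at ZT12. The CardioGRKO values were 110.0, 112, 127, 111 and 119 CPM at ZT0 and 118, 143, 131, 116 and 141 CPM at ZT12. The genotypes were separate at both times, and the gap widened from 1.59-fold at ZT0 to 3.06-fold at ZT12, CardioGRKO being lower. Pik3r1 rose 2.15-fold in GRflox, whereas the CardioGRKO difference of 0.16 ± 0.09 was not called (adjusted p = 0.295), and the interaction was -0.94 ± 0.12 (edgeR, adjusted p = 0.000432). Pik3ip1, an inhibitor of the same kinase, rose in both genotypes, with an interaction of -0.30 ± 0.12 that was not called (adjusted p = 0.687).

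Unfolded protein and integrated stress response genes were called in 1 of 24 cases (0.186% in all genes). Herpud1 (Entrez gene 64209, chromosome 8, 94386429 to 94395371), a membrane component of protein degradation at the endoplasmic reticulum, stood at 197, 215, 226, 174 and 204 CPM in GRflox at ZT0 and at 373, 427, 469, 361 and 448 CPM at ZT12. The CardioGRKO libraries held 150.5, 187, 176, 164 and 163 CPM at ZT0 and 196, 230.4, 186, 210.3 and 218 CPM at ZT12. GRflox at ZT12 was above every other library, and the rise was 2.04-fold in GRflox and 1.23-fold in CardioGRKO. Its interaction was -0.73 ± 0.11 (edgeR, adjusted p = 0.00232). Herpud1 rose while the list mostly fell, since 13 of the 24 genes fell at ZT12 and 2 rose in GRflox (9.17% and 8.13% of all genes), and 13 fell and 1 rose in CardioGRKO (4.75% and 4.42%). Chac1, a glutathione-degrading enzyme of this response, had the largest interaction of the list, -1.81 ± 0.43, with an adjusted p of 0.105 by edgeR. Of the 8 other settings 2 called it, DESeq2 (0.0476) and the replicate block (0.0204), as did 2 of 20 fits with a library left out. Its levels were low, at 1.65 ± 1.06 CPM at ZT0 and 7.57 ± 1.97 CPM at ZT12 in GRflox. In CardioGRKO they were 1.96 ± 0.541 and 2.55 ± 0.900 CPM.

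Gap junction and intercalated disc genes were called in 1 of 15 cases (0.186% in all genes). Gja1 (Entrez gene 14609, chromosome 10, 56377300 to 56390419) encodes connexin 43, the main gap junction protein of the ventricle. It stood at 862, 882, 866, 915 and 864 CPM in GRflox at ZT0 and at 475, 598, 422, 467 and 526 CPM at ZT12. In CardioGRKO it stood at 1080.0, 1113, 1134, 995 and 1131 CPM at ZT0 and 1011, 934, 984, 1044 and 953 CPM at ZT12. The GRflox libraries at ZT12 were the lowest of all 20, and the CardioGRKO libraries were above those of GRflox at each time. Gja1 fell 1.76-fold in GRflox, while the CardioGRKO difference of -0.15 ± 0.06 was not called (adjusted p = 0.169), and the interaction was 0.67 ± 0.09 (edgeR, adjusted p = 0.000529). Connexin 43 is also made by cells other than cardiomyocytes. Fewer cells of a type and less RNA per cell cannot be told apart in RNA of a whole wall. The summed endothelial markers ran from 1977 to 2111 CPM in GRflox and 1729 to 1886 CPM in CardioGRKO at ZT0, and from 1807 to 2015 and 1562 to 1789.7 CPM at ZT12. The summed fibroblast markers overlapped between all groups (2170.2 to 2926 CPM), and the part of such markers in the results was not tested.

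The other 15 called genes stood in none of the lists. Lrrc58 (Entrez gene 320184, chromosome 16, 37868400 to 37888857), which encodes a protein of leucine-rich repeats, had the third smallest p. It stood at 80.7, 87.5, 95.6, 79.5 and 89.3 CPM in GRflox at ZT0 and at 113, 108, 120.5, 117 and 116 CPM at ZT12, against 81.5, 81.5, 81.5, 80.6 and 78.7 CPM and 76.6, 76.4, 75.9, 76.3 and 78.7 CPM in CardioGRKO. It rose in GRflox (0.41 ± 0.04) and the CardioGRKO difference of -0.07 ± 0.04 was not called (adjusted p = 0.367), with an interaction of -0.48 ± 0.06 (edgeR, adjusted p = 0.000529). Zfp646, a zinc finger gene, was the one called gene that changed in CardioGRKO (0.20 ± 0.04) and not in GRflox (-0.10 ± 0.04, adjusted p = 0.137). Its interaction of 0.29 ± 0.06 (adjusted p = 0.0465) was the smallest in size of the 26, and it was lost in 16 of the 20 fits with a library left out and in 5 of the 8 other alternatives.

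Genes that rose in GRflox and changed less in CardioGRKO included enzymes and a receptor. Rhobtb1, a BTB domain gene, rose 4.04-fold in GRflox, from 106 ± 10.6 to 429 ± 39.1 CPM, and 2.18-fold in CardioGRKO, from 124 ± 29.7 to 272 ± 45.0 CPM. Its interaction was -0.89 ± 0.17 (adjusted p = 0.0209, and up to 0.0544 without GRflox ZT0 replicate 2 or 4, GRflox ZT12 replicate 5 or CardioGRKO ZT12 replicate 1). Rnf144b, a ubiquitin ligase, went from 26.8 ± 4.07 to 51.9 ± 6.89 CPM in GRflox and from 31.0 ± 2.02 to 33.1 ± 3.97 CPM in CardioGRKO, with -0.85 ± 0.14 (adjusted p = 0.00538). Both had overlapping genotypes at ZT0 and separate ones at ZT12. Ccrn4l, which encodes nocturnin, a phosphatase with a strong daily rhythm in liver, went from 40.4 ± 6.91 to 67.3 ± 6.30 CPM in GRflox and from 31.1 ± 3.16 to 32.0 ± 2.39 CPM in CardioGRKO. Its interaction was -0.70 ± 0.13 (adjusted p = 0.0209, and up to 0.0519 without GRflox ZT12 replicate 4 or CardioGRKO ZT12 replicate 1, and 0.0880 in libraries thinned to the shallowest total). Adora1, the adenosine A1 receptor, had -0.65 ± 0.13 (adjusted p = 0.0245), with 44.1 ± 4.27 CPM at ZT12 in GRflox, 27.9 ± 1.96 CPM at ZT12 in CardioGRKO and a genotype difference of -0.01 ± 0.09 at ZT0. Its call was lost in 7 of 20 fits with a library left out and with thinning (adjusted p = 0.205).

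Wipf3 and Wbp1l also rose in GRflox. Wipf3, a partner of WASP family actin regulators, rose by 0.76 ± 0.07 in GRflox and had an interaction of -0.58 ± 0.10 (edgeR, adjusted p = 0.00608). In the annotation it overlaps 9130019P16Rik, which had -0.61 (adjusted p = 0.170), and Scrn1, and reads of overlapping genes can be shared where counting ignores strand, and no source says whether it did. Wbp1l, chosen after its value was seen, had an interaction of -0.39 ± 0.08 (adjusted p = 0.0465). Its call was lost with library totals alone, with limma voom, with thinning to the shallowest total and in 16 of the 20 fits with a library left out. Dbp overlaps Sphk2 (-0.17), Adora1 overlaps Mybph, Zfp646 overlaps Prss53, and Per3 and Glul overlap Uts2 and Mir8114, which were too low to test.

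Genes that fell in GRflox and changed less in CardioGRKO were Fbxw7, Gm5105, Tnfaip2, Akap1, Klhdc8a and Leo1, besides Gja1 and Arntl. Fbxw7, the substrate-binding subunit of a ubiquitin ligase, fell by 0.52 ± 0.06 in GRflox and stood at -0.03 ± 0.06 in CardioGRKO, with an interaction of 0.49 ± 0.08 (edgeR, adjusted p = 0.00608). Tnfaip2, a gene induced by tumour necrosis factor, went from 103 ± 5.92 to 52.8 ± 3.41 CPM in GRflox and from 100.3 ± 8.45 to 76.0 ± 9.52 CPM in CardioGRKO, with 0.56 ± 0.10 (adjusted p = 0.0129). Akap1, which anchors protein kinase A at mitochondria, went from 315 ± 8.06 to 204 ± 7.44 CPM in GRflox and from 248 ± 15.5 to 202 ± 10.1 CPM in CardioGRKO. The genotypes were separate at ZT0 and overlapped at ZT12 (-0.02 ± 0.04). Its interaction was 0.33 ± 0.06 (adjusted p = 0.0210), lost in 6 of 20 fits with a library left out and with thinning (adjusted p = 0.0880). Klhdc8a, a kelch domain gene, had 0.67 ± 0.14 (adjusted p = 0.0397), and Leo1, a subunit of the PAF1 elongation complex, 0.47 ± 0.10 (adjusted p = 0.0475). Both were lost in most fits with a library left out, among them the one without the shallowest library (adjusted p = 0.0571 and 0.0807). Both were also lost with limma voom, and Leo1 with DESeq2 size factors and with thinning (adjusted p = 0.543). Gm5105, a provisional gene name chosen after its value was seen, had 0.57 ± 0.10 (adjusted p = 0.00719).

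Of the 37 lists, 31 had no member called for the interaction by edgeR. Amino acid breakdown genes included the call of Glul, which makes rather than breaks down glutamine (1 of 27 called, 0.186% in all genes). All 27 had a negative interaction with a median of -0.10, or 25 of 27 and -0.06 with library totals alone. Over all 14007 genes tested 7099 were negative (median -0.003), or 5351 (median 0.037) with library totals alone. Prodh, proline dehydrogenase, came next with -0.63 ± 0.15 (adjusted p = 0.112 by edgeR and 0.0170 by DESeq2), followed by the transaminases Got1 (-0.23 ± 0.07) and Gpt2 (-0.25 ± 0.09). In oxidative phosphorylation edgeR, DESeq2 and limma voom each called 0 of 26 (0.186% of all genes by edgeR). At an unadjusted p under 0.05 there were 0 (5.99% of all genes). All 26 were negative with a median of -0.06, or 23 of 26 and -0.02 with library totals alone. A time difference was called for 1 of them in GRflox and 0 in CardioGRKO (17.3% and 9.17% of all genes).

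Extracellular matrix genes leaned to a positive sign of the interaction (22 of 32, against 6908 of 14007 genes tested), and more of them fell than rose at ZT12. With library totals alone 25 of 32 were positive, against 8656 of 14007. Of 21 with a time difference averaged over genotypes, 14 had the smaller difference in CardioGRKO. Such an averaged difference was called in 25.7% of all genes tested, and it was smaller in CardioGRKO in 66.5% of them. Of 32 measured, edgeR called 0 and limma voom 0 for the interaction and DESeq2 called 1, while 7 had an unadjusted p under 0.05 (5.99% of all genes), all positive, with a list median of 0.10. In GRflox 16 fell at ZT12 and 4 rose (9.17% and 8.13% of all genes), and in CardioGRKO 10 fell and 3 rose (4.75% and 4.42%). Col3a1, a fibrillar collagen, had 0.50 ± 0.12 (edgeR, adjusted p = 0.112), with a fall in GRflox (-0.62 ± 0.09) and -0.13 ± 0.09 in CardioGRKO, which was not called. The basement membrane collagens Col4a1 and Col4a2 fell in both genotypes, with interactions of 0.33 ± 0.11 and 0.31 ± 0.10 (adjusted p = 0.483 and 0.389). Loxl2, a crosslinking oxidase, had 0.45 ± 0.13 (adjusted p = 0.284).

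The ion channel, sarcomere, adrenergic, autophagy, fatty acid, glucose, heat shock and immediate early lists held 0 calls by edgeR. Their counts at an unadjusted p under 0.05 are to be read against 5.99% of all genes tested. Of 30 cardiac ion channel genes 5 had an unadjusted p under 0.05 and DESeq2 called 1 and limma voom 0, with Kcnj12, an inward rectifier subunit, at -0.39 ± 0.10 (adjusted p = 0.167) and Kcne1, a potassium channel accessory subunit, at 0.69 ± 0.26 (adjusted p = 0.607). Among 20 sarcomere genes Tcap, which caps titin, had -0.55 ± 0.13 (adjusted p = 0.103) after a rise in both genotypes, 2 genes had an unadjusted p under 0.05, DESeq2 called 1 and limma voom 0. Of 22 adrenergic signalling genes 4 had an unadjusted p under 0.05, among them the receptor kinase Grk5 (0.42 ± 0.11, adjusted p = 0.167), DESeq2 called 1 and limma voom 0. Of 22 autophagy and ubiquitin ligase genes 4 had an unadjusted p under 0.05, including the atrophy ligase Fbxo32 (-0.47 ± 0.17, adjusted p = 0.571), and DESeq2 and limma voom called 0. In fatty acid uptake and oxidation 1 of 30 and in glucose and glycogen metabolism 2 of 32 had an unadjusted p under 0.05, with 0 called by DESeq2 or limma voom. Heat shock and cold-inducible genes had 0 of 23 at an unadjusted p under 0.05 and 0 called by either tool, and immediate early genes had 1 of 22 and 0.

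Genes that changed with time in the average of both genotypes give a view that does not use the interaction to choose them. There were 3594 such genes (25.7% of those tested), 1793 higher (12.8%) and 1801 lower (12.9%) at ZT12. The difference was smaller in CardioGRKO in 2390 (66.5%) and larger in 1204, against 55.2% smaller in the 10413 genes without such a call and 58.1% in all genes tested. The median size of the time difference was 0.27 in GRflox and 0.22 in CardioGRKO. The share was 64.8% among genes higher and 68.2% among genes lower at ZT12, and 66.3% without the core clock list. Genes are not independent of each other and no test was made of these shares. Of the 3594 genes, 25 were called with a smaller difference in CardioGRKO and 0 with a larger one (0.186% called in all genes). These 25 belong to the 26 called genes already described, are chosen by the interaction and add nothing to this view. The share fell to 58.4% without CardioGRKO ZT0 replicate 2 and to 61.4% without CardioGRKO ZT12 replicate 3, and was 64.0% to 68.8% in the other alternative fits.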

How the data were processed

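The deposited values are whole-number read counts per gene in 1 file per library, not normalized by the authors. Per the submitters' processing notes, the tools were STAR 2.5.1, featureCounts (Subread 1.5.1) and, with no role given, DESeq2 1.38.3, on build mm10. Strand use, multi-mapping reads and annotation release: not given in the sources used here. Each file had 24918 lines, which gave 24059 genes once repeated Entrez identifiers were summed. Of these, 23973 matched the GRCm38.p6 reference table, the assembly also called mm10, which gave the coordinates. The mean chi-square per gene between libraries of a group was 4.22 to 20.96, above sampling noise in every pair. It cannot tell separate animals from separate preparations of the same animal. Each library was treated as 1 replicate.

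Genes were kept by filterByExpr (minimum count 10, minimum total 15) and tested with edgeR 4.0.16 (quasi-likelihood F-test, TMM, group means, no replicate block) in R 4.3.3. Standard errors are the size of the log2 fold change over the square root of F. Alternatives were other size factors, library totals, other filters, DESeq2 1.42.0, limma 3.58.1 (voom), a replicate block, thinning and leaving out each library. The code was tested on simulated counts. The rule for names took Nr3c1, the core clock list, up to 12 called genes per sign with the largest interaction, 6 per shape of time difference, and up to 4 called genes per list, passing over provisional names. List members that missed the threshold and overlapping genes were named after their values were seen. 1 called gene and 1 core clock gene are not reported here. The gene lists and comparisons were chosen with earlier results of these data known. Promoter windows are from RefSeq. Counting error shrinks with depth, and the shallowest library has the least precise values.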

Additional observations from a re-analysis of the deposited data

Results flagged for a closer look

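For the called genes the time difference differed between the genotypes by the interaction term. The interactions (log2 fold change, edgeR) of genes that rose in GRflox were -1.44 for Zbtb16, -1.36 for Dbp, -0.94 for Pik3r1, -0.89 for Rhobtb1, -0.86 for Per3, -0.85 for Rnf144b, -0.73 for Herpud1, -0.70 for Ccrn4l and -0.69 for Foxo3. They were -0.65 for Adora1, -0.64 for Glul, -0.58 for Tef, -0.58 for Wipf3, -0.57 for Sesn1, -0.48 for Lrrc58 and -0.39 for Wbp1l. Positive interactions were 1.18 for Arntl, 0.67 for Gja1, 0.67 for Klhdc8a, 0.57 for Gm5105, 0.56 for Tnfaip2, 0.49 for Fbxw7, 0.47 for Leo1, 0.33 for Akap1 and 0.29 for Zfp646.

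Single libraries stood far from the others of their group in 10 of 172 groups of 5 libraries, by the ratio of the gap to the range (Dixon), and chance flags about 1 group in 20. In called genes these were Glul in GRflox ZT12 replicate 3 (1263 CPM against 1071 to 1099, ratio 0.843), Ccrn4l in GRflox ZT12 replicate 2 (56.2 against 68.2 to 71.3, ratio 0.812) and Arntl in GRflox ZT12 replicate 5 (1.04 against 1.84 to 2.03, ratio 0.851). Sesn1 stood apart in GRflox ZT12 replicate 4 (141 against 168 to 176 CPM, ratio 0.791), Dbp in CardioGRKO ZT12 replicate 1 (113 against 162 to 184 CPM, ratio 0.741) and Lrrc58 in CardioGRKO ZT12 replicate 5 (78.7 against 75.9 to 76.6 CPM, ratio 0.743). Among uncalled clock genes, CardioGRKO ZT12 replicate 3 was low for Per1 (81.3 against 111 to 122 CPM, ratio 0.771) and Per2 (62.1 against 73.6 to 76.4 CPM, ratio 0.819). GRflox ZT0 replicate 4 was low for Rorb (0.286 against 1.02 to 1.29 CPM, ratio 0.832), and GRflox ZT0 replicate 1 for Bhlhe40 (35.0 against 55.6 to 58.7 CPM, ratio 0.894).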

How the results depend on the processing

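The 26 interaction calls became 69 with DESeq2, which included all 26, and 16 to 33 with a library left out. The count was 17 without GRflox ZT0 replicate 2, GRflox ZT0 replicate 4 or GRflox ZT12 replicate 4, and 16 without CardioGRKO ZT12 replicate 1. Other settings gave 24 (DESeq2 size factors), 34 (library totals), 31 (no filter), 26 (at least 50 counts in 5 libraries), 21 (limma voom) and 22 (thinned to the shallowest total). With thinning, time calls were 1472 in GRflox, 753 in CardioGRKO and 2305 averaged over genotypes, and genotype calls were 1371 at ZT0 and 1899 at ZT12. Fbxw7, Gm5105 and Per3 lost their call there and nowhere else. The labels do not say whether replicate numbers pair the libraries, and these values cannot settle it. Of 30 same-numbered pairs of different groups, 8 deviated together with a correlation over 0.1 (-0.27 to 0.23). The mean correlation was 0.027 for the same number and -0.007 for different numbers, and 7 of 20 libraries correlated best with their own number. A fit with the replicate block called 38 genes, 25 of them shared with the 26. Of the uncalled genes, Cry1 turned to -0.022 with limma voom and ran from -0.057 to 0.079 with a library left out, Bhlhe41 from -0.203 to 0.004, and Nr3c1 from -0.059 to 0.018, with 0.022 under library totals, and the cause was not tested. Of the 26 called genes 13 kept their call in all alternatives. The depth of the shallowest library limits what thinning can call.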

Other observations

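A few further transcripts had the larger time difference in GRflox and were not called by edgeR. Usp2, a ubiquitin protease with a daily rhythm, had an interaction of -0.38 ± 0.11 (edgeR, adjusted p = 0.250) and rose in both genotypes, by 1.13 ± 0.08 in GRflox and 0.75 ± 0.08 in CardioGRKO. Wee1, a cell cycle kinase gene under clock control, had -0.45 ± 0.12 (adjusted p = 0.223) and also rose in both, by 1.21 ± 0.09 and 0.77 ± 0.09. Ppargc1a, a coactivator of mitochondrial genes, had -0.49 ± 0.13 (adjusted p = 0.210), with 0.31 ± 0.09 in GRflox and -0.18 ± 0.09 in CardioGRKO, the latter not called. DESeq2 called the interaction of Ppargc1a (adjusted p = 0.0447) and not those of Usp2 (0.0761) and Wee1 (0.0711).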
